A study of Sus scrofa with 12 samples.

Results

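The deposited list of N6-methyladenosine (m6A) peaks in normoxic porcine granulosa cells held 25346 regions, of 49790 in the normoxia and hypoxia lists together. All its rows were taken, grouped by annotated region, by gene and by span, and set beside the mean input RNA level of each gene. Granulosa cells are the hormone-producing support cells around the oocyte. They were primary cultures from antral follicles of sexually mature crossbred sows (Duroc, Yorkshire and Landrace), grown with fetal bovine serum and kept for 12 h at 21% O2. The second group of the study, kept for 12 h at 1% O2, is used here only beside the normoxia list. Per group there were 3 biological replicates. Fragmented poly(A) RNA of each was sequenced once as input and once after pull-down with an m6A antibody (IP), and the labels put all libraries in 1 batch. The labels do not tie replicates to single sows. The authors deposited 1 peak list for each condition, with 1 enrichment of IP over input for each peak and no values for single replicates. Peak enrichments and p-values are therefore the authors' values without a replicate error, and they are used to describe, rank and filter peaks within the list.

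m6A is a methyl group on adenosines inside mRNA. A nuclear methyltransferase complex built around METTL3 and METTL14 writes it, FTO and ALKBH5 can remove it, and reader proteins such as the YTH family bind it and influence splicing, export, translation and decay. In mammalian mRNA it is known to concentrate around stop codons, in 3' UTRs and in long internal exons, and in the ovary it has been studied in follicle growth and steroid production. Methylated RNA immunoprecipitation sequencing (MeRIP-seq) finds the mark by comparing antibody-bound RNA fragments with the input. It locates regions and not single methylated bases.

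The input RNA, given as FPKM (fragments normalised to transcript length and library size), carried 9 of 12 granulosa markers at 1 FPKM or more in the mean of the 3 libraries. These included the FSH receptor FSHR (9.89, 8.98 and 10.3 FPKM in libraries 1 to 3), the transcription factor FOXL2 (6.01, 7.80 and 6.68) and the inhibin subunit INHBA (31.0, 28.2 and 27.4). The aromatase gene CYP19A1 (0.214, 0.0832 and 0.402 FPKM), HSD17B1 (0.126, 0.515 and 0.519) and AMH (listed at 0, 0 and 0.353) were below that level. All 9 markers of fibroblasts and smooth muscle were at 1 FPKM or more and summed to 9445, 8576 and 7619 FPKM, of which the contractile actin ACTA2 gave 8600, 7718 and 6607. The 12 granulosa markers summed to 112, 122 and 123 FPKM. Of the 5 endothelial markers in the table, VWF, KDR, TEK and CLDN5 were at most at 0.119 FPKM in any library and PECAM1 was at 6.19 to 6.80. Of the 5 leukocyte markers in the table, PTPRC was at most at 0.0440 FPKM and CD14 was at 2.59 to 3.68. Of the 5 markers of theca cells in the table, the neighbouring cell layer of the follicle, PDGFRB was at 7.07, 8.05 and 12.5 FPKM and PTCH1 at 1.40, 1.37 and 1.40. LHCGR was at 0.421 to 0.622, INSL3 at most at 0.128 and STAR at most at 0.0973. What part each cell type had in the peak list was not tested.

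The 3' UTR was the most frequent place of a normoxia peak. The authors' annotation placed 11621 peaks (45.8%) in 3' UTRs of 8106 genes, 8305 (32.8%) in exons of 4969 genes, 4337 (17.1%) in 5' UTRs of 3906 genes and 1078 (4.25%) in exons of noncoding RNAs of 578 genes. Another 4 peaks were intronic and 1 had no annotation. Among 3' UTR peaks, 65.8% had their midpoint in the last 10% of the gene, the median distance from the peak to the gene end was 928 bases, and 19.9% reached that end. Among 5' UTR peaks, 53.3% had their midpoint in the first 10% and 59.3% reached the gene start. Exonic peaks were spread along the gene, from 6.26% of them in the first 10% of it to 17.1% in the last. The hypoxia list had 43.7% of its peaks in 3' UTRs, 35.8% in exons and 15.9% in 5' UTRs.

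**Figure D1:**
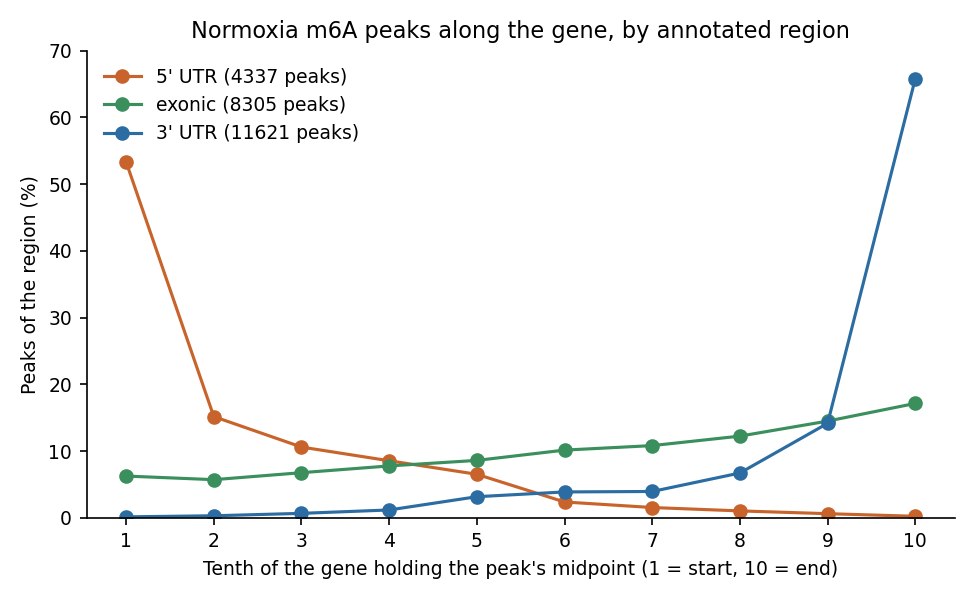
Share of the normoxia m6A peaks of each annotated region (vertical axis, percent) by the part of the gene, in 10 equal steps, that holds the peak's midpoint (horizontal axis, 1 at the gene start). The 3' UTR line reaches 65.8% in the last step, the 5' UTR line begins at 53.3% in the first, and exonic peaks lie between 5.72% and 17.1% throughout.

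The median enrichment of IP over input was 4.23-fold (quartiles 2.51 and 7.14, range 1.08 to 730). The median was 4.45-fold in 3' UTRs, 4.23-fold in 5' UTRs, 3.44-fold in exons and 6.82-fold in exons of noncoding RNAs. All listed peaks had an unadjusted p-value under 0.05, and 22014 (86.9%) had an adjusted p-value under 0.05. The 10 most frequent enrichment values, each shared by many peaks, accounted for 4885 peaks (19.3%). They held 64.1% of the peaks in genes under 0.1 FPKM and 5.41% of those in genes of 100 to 300 FPKM. Fragment counts behind the peaks were not used here, so the precision of a high fold in a gene of low RNA level is unknown.

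The median peak spanned 687 bases from its first to its last base, introns included (quartiles 241 and 3308). The median span was 481 bases in 3' UTRs, 1054 in 5' UTRs and 1200 in exons. Spans over 10000 bases belonged to 2988 peaks (11.8%). The intron part of these spans was not determined, because the lists give spans only. The 5 widest exonic peaks lay in DLG2, a synaptic scaffold gene (1303509 bases, 8.46-fold), NALF1 (565615 bases, 16.9-fold), CFAP299 (508004 bases, 4.02-fold), the axon guidance receptor gene ROBO2 (360544 bases, 1.96-fold, adjusted p = 0.0912 in the authors' deposited table) and NCKAP5 (356943 bases, 15.9-fold). All these genes except ROBO2 were under 1 FPKM in the mean.

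Of the 18060 genes in the expression table, 10025 had a mean of at least 1 FPKM and are called expressed below. Of these, 8643 (86.2%) carried at least 1 listed peak and 1382 (13.8%) carried none. When expression was judged from each input library alone the share was 86.2% ± 0.0330 (SD, n = 3). The peak list was the same each time, so this SD covers the expression call and not the peaks. With an adjusted p-value under 0.05 required of the peak the share was 84.2%, and with an enrichment of at least 2-fold it was 79.6%. These 3 percentages are the background against which the gene groups below are read. A gene without a listed peak is one in which the authors' procedure reported none, which does not show that its RNA lacks m6A. In 18 of the 1382 genes a peak assigned to another gene on the same strand overlapped the gene model, and those named below are marked.

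The share of genes with a peak was highest at intermediate RNA levels. It was 10.8% of the 4799 genes under 0.1 FPKM, 68.8% from 0.1 to 1 FPKM, 85.5% from 1 to 3, 88.4% from 3 to 10 and 88.1% from 10 to 30. Above that it was 81.3% from 30 to 100 FPKM, 78.9% from 100 to 300, 67.0% (67 of 100 genes, 95% exact binomial interval 56.9 to 76.1) from 300 to 1000 and 65.9% (27 of 41 genes, interval 49.4 to 79.9) over 1000. These intervals cover the counting of genes only. Ranges drawn from the 3 libraries one by one, with the same peak list, gave 68.4% ± 1.55 from 300 to 1000 FPKM and 88.5% ± 0.379 from 3 to 10 FPKM (SD, n = 3). The median enrichment of the peaks was 7.40-fold under 0.1 FPKM, 4.02-fold at 1 to 3 FPKM, 2.41-fold at 100 to 300, 2.60-fold at 300 to 1000 and 2.08-fold over 1000. The part of the peaks annotated to 5' UTRs was 15.4% at 1 to 3 FPKM and 32.4% over 1000 FPKM. Exonic peaks were 37.7% and 21.6% of the peaks in the same ranges.

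**Figure D2:**
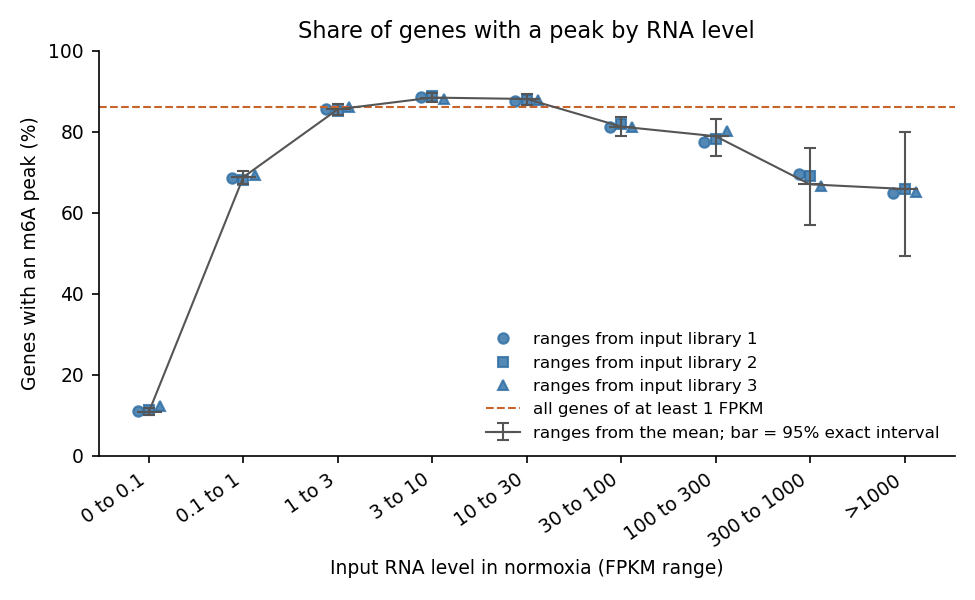
Share of genes with at least 1 normoxia m6A peak (vertical axis, percent) by range of input RNA level (horizontal axis, FPKM). Points use the ranges of each input library, the line and its bars the mean with its 95% exact binomial interval over genes, and the dashed line marks 86.2%, the share of all genes of at least 1 FPKM. The share is 88.4% from 3 to 10 FPKM and 65.9% over 1000 FPKM.

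Genes without a peak made up 24.1% ± 0.728 (SD, n = 3) of the summed FPKM of a library (23.6%, 23.8% and 24.9% in libraries 1 to 3). Several of the most abundant mRNAs of these cells were among them. The cytoskeletal actin gene ACTG1 was at 5603, 5817 and 5775 FPKM in libraries 1 to 3. FTL, the light chain of the iron store ferritin, was at 2445, 2548 and 2943 FPKM. The galectin gene LGALS1 was at 2095, 2275 and 2616 FPKM, and GAPDH, the glycolytic enzyme that makes NADH, at 1963, 2187 and 2323. ACTG1 was the highest of these 4 in every library, and none of them had a listed peak. The 15 most abundant genes with a symbol and no peak also included RPS2, RPLP1, RPLP0, RPS18, RPS14, RPS7 and RPS16, which code for ribosomal proteins, the ribosome-bound scaffold gene RACK1 and the calcium-binding protein gene S100A6. Means of the 15 ran down to 935 FPKM, and 12 of the 15 were over 1000 FPKM in every library. None of the 15 had a peak in the hypoxia list either (0 of 15). Of all 1382 expressed genes without a normoxia peak, 1165 had none in the hypoxia list.

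Equally abundant mRNAs did carry peaks. The contractile actin ACTA2 (8600, 7718 and 6607 FPKM) had 1 exonic peak of 2.08-fold, and TMSB10, whose product binds actin monomers, had 1 peak of 2.97-fold in its 3' UTR at 8013, 7906 and 6502 FPKM. The matrix glycoprotein gene THBS1 (2990, 3133 and 2740 FPKM) had 1 peak of 4.17-fold in its 3' UTR. The elongation factor gene EEF1A1 had 3 peaks, 2 in the 5' UTR and 1 exonic, up to 4.27-fold, at 3420, 2566 and 2696 FPKM. GPX3, TMSB4X, TIMP1, TAGLN, CLU and the ribosomal protein gene RPL13A complete the 10 most abundant genes with a peak, at means between 1595 and 2962 FPKM. The 10 genes shared 12 peaks, 5 in 3' UTRs, 5 in 5' UTRs and 2 exonic. Of the 10, 9 also had a peak in the hypoxia list, TAGLN being the exception. Among all genes expressed in both conditions, 7356 had a peak in both lists and 796 in normoxia alone. ACTB, singled out after its values were seen as the other cytoskeletal actin, had 1300 ± SD 136 FPKM and 4 peaks of up to 15.9-fold. ACTG1 and ACTB are close copies, and the sources used here do not say how reads matching both were assigned.

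**Figure D3:**
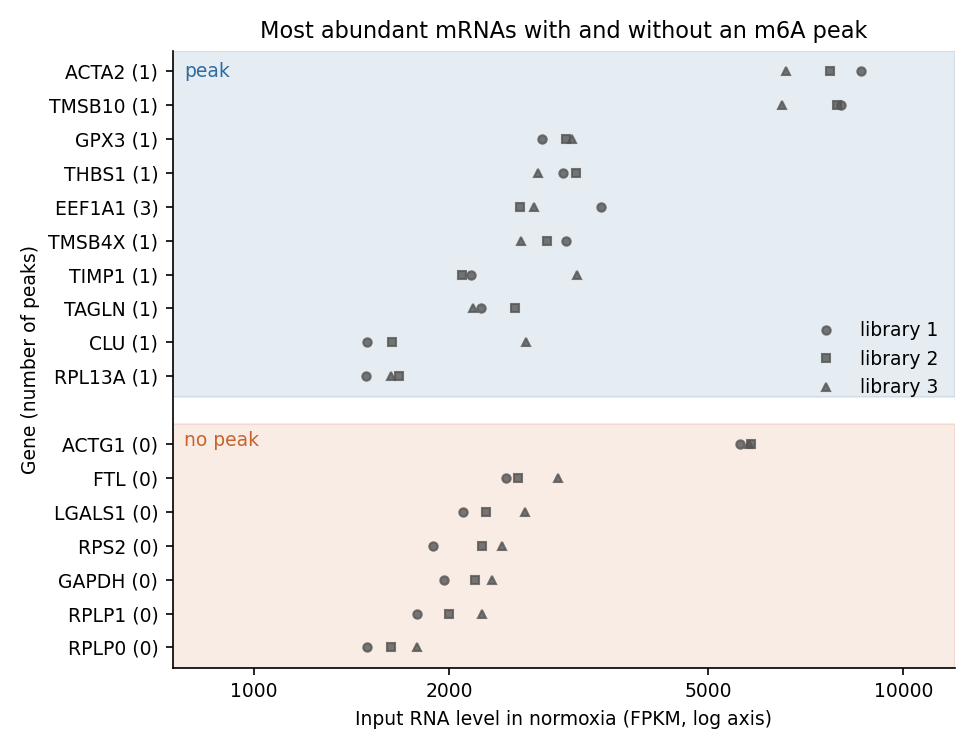
Input RNA level (horizontal axis, FPKM, log scale) in the 3 normoxia libraries for the 10 most abundant genes with an m6A peak (upper block) and the 7 most abundant without one (lower block), each with a gene symbol. Numbers beside the names are peaks per gene. The blocks overlap in RNA level: ACTG1, with no peak, lies at 5603 to 5817 FPKM and RPL13A, with 1 peak, at 1488 to 1671.

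Gene length ran with the share of genes carrying a peak. Among expressed genes it was 58.6% (214 of 365) up to 2000 bases of genomic length, 80.3% from 2000 to 5000, 86.0% from 10000 to 20000 and 93.4% (1394 of 1492) over 100000 bases. The mean number of peaks per gene was 0.734 in the shortest range and 2.77 in the longest. Within genes of 30 to 300 FPKM the shares were 63.5% up to 2000 bases and 97.3% over 100000, and within genes of 1 to 30 FPKM they were 58.8% and 93.2%. Length and RNA level were themselves tied: the median genomic length was 33163 bases at 1 to 3 FPKM and 3808 over 1000 FPKM. The median length was 27169 bases for expressed genes with a peak and 14719 for those without, and the median RNA level was 6.74 and 7.98 FPKM.

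**Figure D4:**
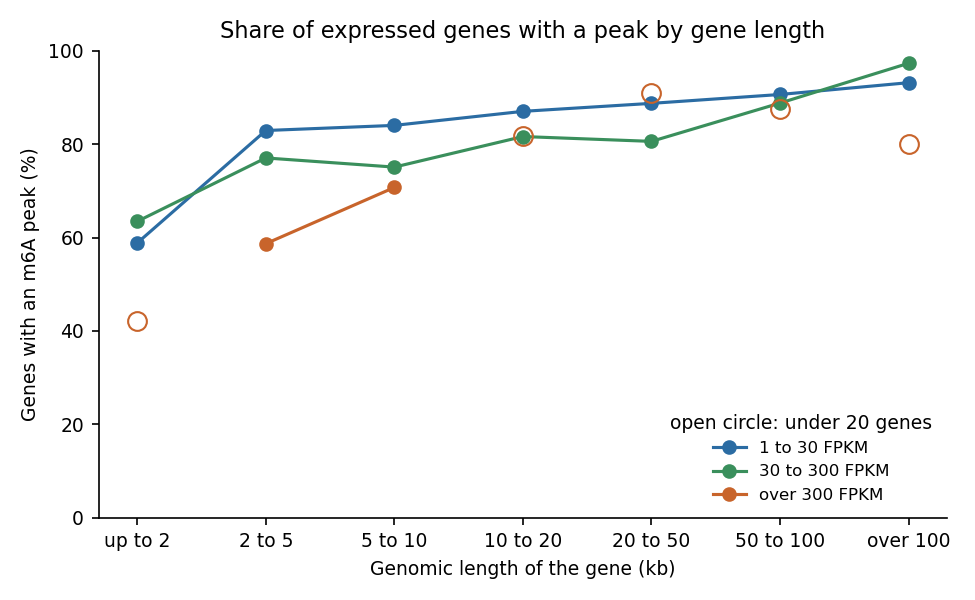
Share of expressed genes with at least 1 normoxia m6A peak (vertical axis, percent) by genomic length (horizontal axis, kilobases), drawn separately for 3 ranges of RNA level. Open circles mark points of under 20 genes. In the 1 to 30 FPKM range the share is 58.8% for the shortest genes and 93.2% for the longest.

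The ribosome and the respiratory chain were the 2 groups with the lowest shares among the 25 gene lists. Of 67 expressed genes for cytosolic ribosomal proteins, the structural proteins of the ribosome, 36 (53.7%, 95% exact interval 41.1 to 66.0) carried a peak, beside 86.2% of all expressed genes. Among other expressed genes in the same FPKM ranges the share was 77.4%, and among those in the same ranges of FPKM and genomic length 71.2%. A peak of at least 2-fold was present in 25 of the 67 (37.3%), beside 79.6% of all expressed genes and 46.1% of those over 300 FPKM. The median RNA level of the list was 383 FPKM. By subunit, 13 of 30 small-subunit genes and 23 of 37 large-subunit genes had a peak. Of the 48 peaks of ribosomal protein genes 33 lay in the 3' UTR. The strongest peak of a gene had a median of 2.56-fold, beside 5.29-fold over all expressed genes, and the median of all peaks in genes of 300 to 1000 FPKM was 2.60-fold. RPL23A (1441 ± SD 30.8 FPKM) had 1 peak of 1.92-fold and RPS26 (1367 ± SD 88.4) 1 of 2.75-fold, both in the 3' UTR. RPL10, singled out after its values were seen, had 1 peak of 6.35-fold in its 5' UTR at 1085 FPKM. RPS2 (1884, 2244 and 2413 FPKM), RPLP1 (1781, 1996 and 2242) and RPLP0 (1494, 1624 and 1780) had none. Ribosomal protein genes have many processed copies in mammalian genomes, and the counting of reads shared with such copies was not tested.

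The ribosome inside mitochondria gave other values. Of 65 expressed genes for mitochondrial ribosomal proteins, 61 (93.8%) carried a peak, beside 86.2% in the same FPKM ranges, and 54 had one of at least 2-fold. MRPS6 had 1 peak of 5.39-fold at 109 ± SD 4.69 FPKM and MRPL12 1 of 7.66-fold at 60.7, 81.2 and 78.6, both in the 3' UTR. The 4 without a peak were MRPL28, MRPS18B, MRPL13 and MRPL39.

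Of 64 expressed genes for subunits of oxidative phosphorylation, the respiratory complexes and the ATP synthase, 36 (56.2%) carried a peak. The share was 83.3% among other expressed genes of the same FPKM ranges, and 25 of the 64 (39.1%) had a peak of at least 2-fold. Complex I, which takes electrons from NADH, had a peak in 18 of 32 genes, complex II in 2 of 4, complex III in 6 of 8, cytochrome c oxidase (complex IV) in 5 of 9 and the ATP synthase in 5 of 11. The cytochrome c oxidase subunit genes COX4I1 (552 ± SD 41.3 FPKM), COX8A (140 ± SD 12.3) and COX5A (126 ± SD 9.38) had no peak. NDUFB1 of complex I (178 ± SD 17.3 FPKM, 2.28-fold) and ATP5PO of the ATP synthase (150 ± SD 27.5, 1.84-fold) each had 1 peak in the 3' UTR. NDUFB9 had 2, up to 1.95-fold. Among the genes of this list without a peak, NDUFC1 was overlapped by a peak assigned to MGARP.

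Glycolysis and steroid synthesis also had members at high RNA levels without a peak. In the list for glycolysis and glucose uptake 14 of 21 genes (66.7%, 80.4% in the same FPKM ranges) carried one. GAPDH, the aldolase gene ALDOA (505 ± SD 50.3 FPKM), the enolase gene ENO1 (396 ± SD 29.9), GPI, PFKP, PFKL and LDHB had none, although a 3.17-fold peak assigned to a neighbouring gene without a symbol overlapped ALDOA. The pyruvate kinase gene PKM (534 ± SD 64.0 FPKM) had 1 peak of 3.43-fold, TPI1 (335 ± SD 25.5) 1 of 1.32-fold and PGAM1 (203 ± SD 8.56) 1 of 2.57-fold. In the steroidogenesis list 9 of 15 genes (85.9% in the same FPKM ranges) carried a peak. CYP11A1, the side-chain cleavage enzyme that makes pregnenolone from cholesterol, was at 254, 246 and 444 FPKM with no peak. The mitochondrial cholesterol-binding protein gene TSPO (36.6 ± SD 7.37), the P450 reductase gene POR (17.8 ± SD 2.27), SRD5A1, HSD17B12 and FDX1 had none either. NR5A1, the transcription factor that drives steroidogenic genes, had 4 peaks at 12.9 ± SD 1.63 FPKM, and HSD17B4 had 3. Lists of this size leave wide exact intervals, 43.0 to 85.4% for glycolysis and 32.3 to 83.7% for steroidogenesis.

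**Figure D5:**
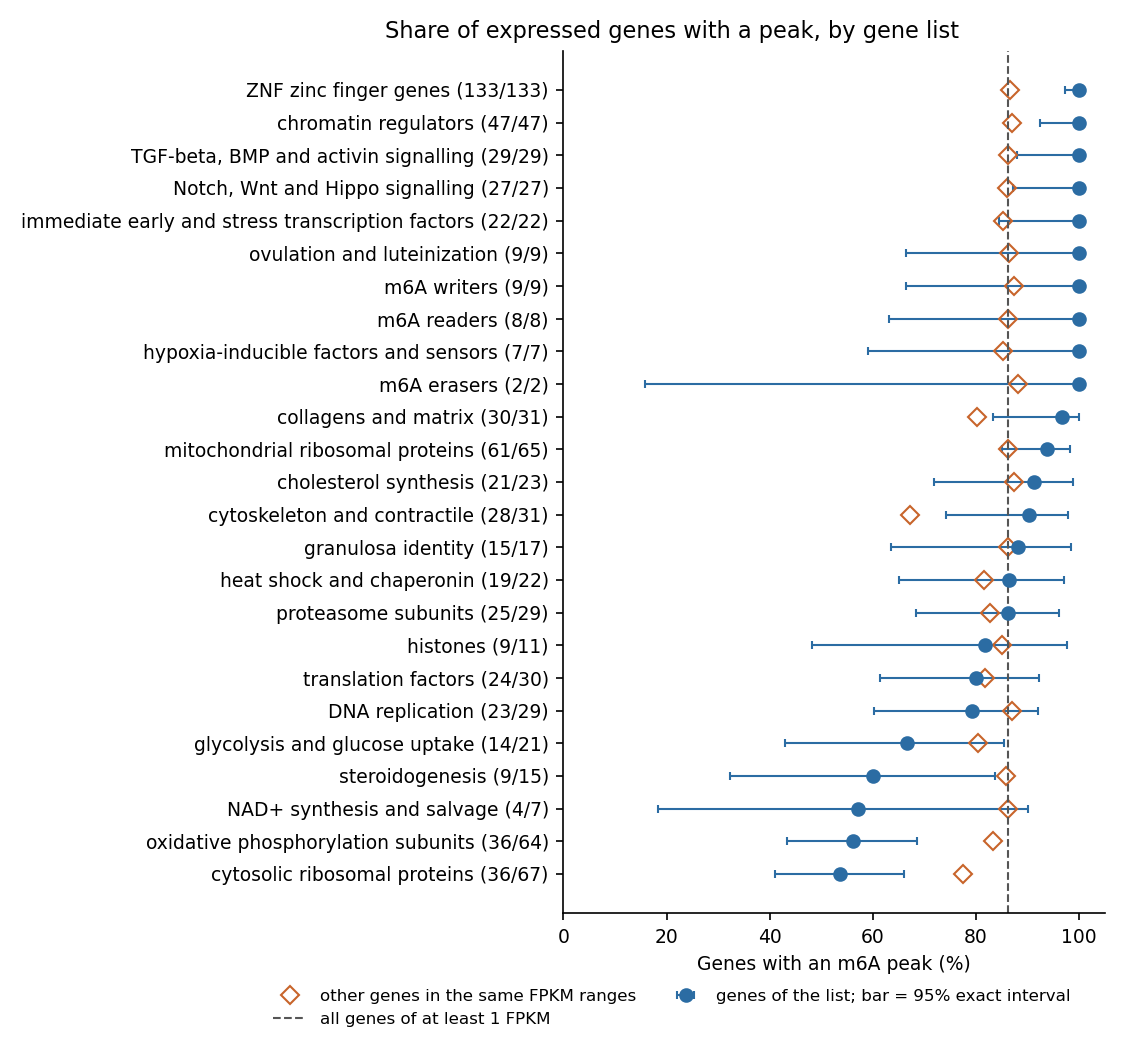
Share of expressed genes with at least 1 normoxia m6A peak (horizontal axis, percent) in 25 gene lists, with genes carrying a peak and expressed genes in parentheses. Filled points give the list with its 95% exact binomial interval over genes, open diamonds the other expressed genes in the same FPKM ranges, and the dashed line all expressed genes (86.2%). Cytosolic ribosomal proteins (53.7%) and oxidative phosphorylation subunits (56.2%) lie lowest, and 10 lists lie at 100%.

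Every expressed member of the ZNF and chromatin regulator lists carried a peak. All 133 expressed genes with ZNF symbols, which code for zinc finger proteins, carried at least 1 peak, and 129 (97.0%) had one of at least 2-fold. Other expressed genes in the same FPKM ranges had 86.6%. ZNF genes held 366 peaks, 44.0% of them exonic, beside 30.9% over all expressed genes, with a median of 7.19-fold for the strongest peak of a gene. ZNF664 (36.6 ± SD 6.24 FPKM) had 2 peaks in its 3' UTR, the stronger of 142-fold, ZNF706 (56.3 ± SD 10.1) had 1 of 1.72-fold and ZNF358 (35.3 ± SD 6.43) 1 of 1.98-fold. Zinc finger genes have many related copies with repeated finger domains in long last exons.

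All 47 expressed chromatin regulators (histone methyltransferases, demethylases, acetyltransferases, remodellers and corepressors) carried a peak of at least 2-fold. They had 4.89 peaks per gene, beside 1.91 over all expressed genes, and 68.7% of their 230 peaks were exonic. Their median genomic length was 102054 bases, beside 25110 over all expressed genes, and among other expressed genes of the same FPKM and length ranges 90.8% had a peak. The nucleosome remodeller gene CHD4 (59.4 ± SD 1.17 FPKM) had 3 peaks of up to 3.80-fold, SMARCA4 (38.7 ± SD 2.57) 3 of up to 5.18-fold and CHD3 (37.5 ± SD 1.25) 6 of up to 15.5-fold. KMT2A, KMT2C and CHD7, named after their values were seen as those with the most peaks in the list, had 11 each, of which 9, 11 and 10 were exonic.

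Immediate early and stress transcription factors had peaks in 22 of 22 expressed genes, all with at least 2-fold. ATF4, the effector of the integrated stress response (303 ± SD 3.48 FPKM), had 1 peak in the 3' UTR and 1 in the 5' UTR, up to 10.6-fold. CEBPB (112 ± SD 28.3) had 3 of up to 4.17-fold and BHLHE40 (91.0 ± SD 25.3) 2 of up to 6.38-fold. These genes are short, with a median of 4301 bases. Among other expressed genes of the same FPKM and length ranges 79.4% had a peak. In the same FPKM ranges alone the share was 85.3%, which the exact interval of the list, 84.6 to 100%, contained.

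The signalling lists were as full. In TGF-beta, BMP and activin signalling 29 of 29 expressed genes had a peak (interval 88.1 to 100%, beside 86.2% in the same FPKM ranges). Of their 53 peaks 30 lay in the 3' UTR. ID3, an inhibitor of basic helix-loop-helix factors (335 ± SD 93.6 FPKM), had 1 peak of 2.55-fold, the activin-binding protein gene FSTL3 (75.4 ± SD 8.87) 2 of up to 6.52-fold and ID2 (65.7 ± SD 17.8) 1 of 4.70-fold. In Notch, Wnt and Hippo signalling 27 of 27 had a peak (interval 87.2 to 100%, beside 86.1%). They included CCN2, a matricellular target of YAP (893 ± SD 53.1 FPKM, 1 peak of 4.72-fold), CCN1 (195 ± SD 29.3, 1 of 3.09-fold) and the beta-catenin gene CTNNB1 (108 ± SD 11.9, 3 of up to 2.82-fold). The hypoxia-inducible factors and oxygen sensors had peaks in 7 of 7 expressed genes. Here the interval, 59.0 to 100%, contained the 85.2% of the same FPKM ranges. HIF1A (59.9 ± SD 5.41 FPKM) had 1 exonic peak of 2.62-fold, ARNT2 4 in the 3' UTR and EPAS1 2.

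Expressed genes carried 1.91 peaks on average: 1382 carried 0, 3330 carried 1, 2608 carried 2, 1416 carried 3, 699 carried 4 and 590 carried 5 or more. The median genomic length was 14719 bases for genes with 0 peaks, 18608 with 1, 34697 with 3 and 67223 with 5 or more. Of the 8643 expressed genes with a peak, 6460 (74.7%) had one in the 3' UTR, 3658 (42.3%) an exonic one and 3230 (37.4%) one in the 5' UTR, and 2838 (32.8%) had peaks in the 3' UTR alone. Peaks in both UTRs and no exonic one were found in 1391 genes.

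Among genes in the expression table, 8 had 13 or more peaks. They held 117 peaks, 108 of them exonic. ZFHX3, a large homeodomain transcription factor, had 17 peaks of up to 23.3-fold at 0.928 ± SD 0.103 FPKM. DST, which links cytoskeletal filaments, had 16 at 13.1 ± SD 0.872 FPKM, and AKAP9, an anchoring protein of the Golgi and centrosome, had 15 at 0.523 ± SD 0.106. The centrosomal genes CEP350 and ALMS1, the nuclear envelope gene SYNE2 and the protocadherin gene PCDHGA4 had 14 each, and the giant cadherin gene FAT4 had 13. These 8 genes each spanned over 100000 bases. The 14 peaks of PCDHGA4 lie in a cluster whose genes share their last exons. The peak list had 7 genes with 12 peaks, and the 2 of these with the highest RNA level were GMPPB, with 11 of its 12 in the 3' UTR, and ZDHHC3, with all 12 there. GMPPB, which codes for an enzyme that makes GDP-mannose, is 4888 bases long, and 6 of its peaks overlapped an earlier one of its own peaks, so its 12 rows are not 12 separate regions. Over the whole list 160 peaks overlapped an earlier peak on the same strand.

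The strongest enrichments in genes of at least 10 FPKM exceeded 100-fold. On assembly Sscrofa11.1 the highest was 730-fold, in an exonic peak at chr17:62071321-62072860 in a gene known only as ENSSSCG00000056699 (17.3 FPKM). ORMDL3, a regulator of sphingolipid synthesis (28.6 FPKM), had a 3' UTR peak of 579-fold at chr12:22416719-22417347. PSMD4, the ubiquitin receptor of the proteasome (82.7 FPKM), had one of 429-fold at chr4:97994065-97994333. In FADS2, a fatty acid desaturase gene (25.6 FPKM), a 5' UTR peak of 299-fold spanned 9827 bases at chr2:9657071-9666897. The chromatin protein gene MORF4L1 (112 FPKM) had a 5' UTR peak of 264-fold at chr7:48050045-48070444. Then came the centromere protein gene CENPB (200-fold, exonic), the RNA-binding protein gene TAF15 (182-fold, 3' UTR), ENSSSCG00000003352 (163-fold, 5' UTR), the RNA helicase gene DHX9 (146-fold, exonic) and ZNF664 (142-fold, 3' UTR). Of these 10 peaks, the authors' annotation placed 4 in 3' UTRs, 3 in 5' UTRs and 3 in exons. Some had wide spans, introns included: 27726 bases in TAF15, 20400 in MORF4L1 and 13130 in ENSSSCG00000003352. The adjusted p-value in the authors' deposited table was listed at 0 for 495 peaks, among them the strongest peaks of ENSSSCG00000056699, ORMDL3, MORF4L1, CENPB and TAF15.

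Peaks were also listed in the genes of the m6A machinery, in lists whose exact intervals all contain the 86.2% of all expressed genes. All 9 expressed writer genes had one (95% exact interval 66.4 to 100%, beside 87.4% in the same FPKM ranges). The catalytic subunit gene METTL3 (6.46, 6.08 and 6.78 FPKM) had 1 exonic peak of 2.24-fold at chr7:77673387-77673655, and its partner METTL14 (1.69, 2.03 and 1.81 FPKM) had 5 of up to 2.91-fold, 4 of them in the 3' UTR. The complex members WTAP (3 peaks of up to 6.35-fold), VIRMA (5, up to 5.72-fold), ZC3H13 (4, up to 34.4-fold), CBLL1 (3, up to 5.18-fold) and RBM15B (1, 7.02-fold) had peaks as well. The separate methyltransferase genes METTL16 and METTL5 had 2 of up to 3.29-fold and 1 of 2.18-fold. RBM15 and ZCCHC4 were below 1 FPKM, with 4 peaks and 1 peak.

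Both eraser genes had 1 peak (2 of 2, interval 15.8 to 100%). FTO (18.0, 18.9 and 20.2 FPKM) had an exonic one of 3.90-fold that spanned 31038 bases, introns included, at chr6:31427707-31458744. ALKBH5 (9.43, 10.9 and 10.1 FPKM) had one of 4.76-fold in its 5' UTR at chr12:60529017-60529554. FTO was the higher of these 2 genes in every library. The hypoxia list had 1 peak in FTO and 4 in ALKBH5.

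All 8 expressed reader genes had a peak (interval 63.1 to 100%, beside 86.2% in the same FPKM ranges), 8 of their 15 peaks being exonic. PRRC2A (39.6 ± SD 4.01 FPKM) had 3 of up to 79.0-fold, YTHDC1, the nuclear YTH reader (13.3 ± SD 2.60), 3 of up to 12.9-fold and YTHDF3 (7.43 ± SD 0.984) 2 of up to 12.7-fold. YTHDF1 (7.71 ± SD 1.38) and YTHDF2 (6.77 ± SD 0.386), cytoplasmic readers, had 1 exonic peak each, of 6.26-fold and 7.13-fold. HNRNPA2B1 had 2 of up to 7.24-fold, FMR1 2 of up to 2.81-fold and ELAVL1 1 exonic peak. YTHDC2 was at 1.18, 1.02 and 0.791 FPKM and IGF2BP3 near 0, both without a peak, while IGF2BP2 (0.725 FPKM) had 2.

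NMNAT3, a mitochondrial enzyme gene of NAD+ synthesis named in the title of the study, was at 0.0936, 0.162 and 0.108 FPKM in normoxia and had no normoxia peak. The hypoxia list had 2 peaks in it, at a mean of 5.36 FPKM. Among genes of 0.1 to 1 FPKM in normoxia 68.8% carried a peak, and among those under 0.1 FPKM 10.8%. NMNAT3 lay near the border of these 2 ranges, below it in library 1. Of the 7 expressed genes in the list for NAD+ synthesis and salvage, 4 had one (57.1%, exact interval 18.4 to 90.1%). That interval contained the 86.2% of other expressed genes in the same FPKM ranges. NADK (48.5 ± SD 3.24 FPKM) had 1 of 14.9-fold, HAAO 1 of 5.29-fold and NADK2 1 of 3.74-fold. NMNAT1, the nuclear enzyme and the fourth of them, had 5 peaks at a mean of 1.01 FPKM, while NAPRT (8.92 ± SD 1.88), NMNAT2 (8.76 ± SD 0.283) and NADSYN1 (3.92 ± SD 0.694) had none.

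Genes that identify granulosa cells had peaks in 15 of 17 expressed members (88.2%, exact interval 63.6 to 98.5%). The interval contained the 86.2% of other expressed genes in the same FPKM ranges. The inhibin alpha gene INHA (8.20, 11.5 and 11.4 FPKM) had 2 peaks annotated to the 5' UTR, the stronger of 92.0-fold at chr15:121581732-121585257. INHBA had 1 of 58.8-fold annotated to the 3' UTR, with a span, chr18:52889862-52900878, that can include introns. INHBB had 2 of up to 11.6-fold, FSHR 2 of up to 6.04-fold, GATA4 5 of up to 5.48-fold and the follistatin gene FST 1 of 1.54-fold. The peak of FOXL2 (6.99-fold) was annotated to a noncoding exon, although FOXL2 codes for a protein. The gap-junction gene GJA1 (243 ± SD 33.8 FPKM) had 1 of 8.79-fold and the cadherin gene CDH2 (31.7 ± SD 1.49) 4 of up to 10.6-fold. The protease inhibitor gene SERPINE2 (78.8 ± SD 5.07) and AMHR2, the receptor of anti-Müllerian hormone (1.93, 2.66 and 3.58 FPKM), had none. CYP19A1 had 2 peaks despite 0.233 FPKM, the stronger of 8.46-fold with an adjusted p of 0.191 in the authors' deposited table. Ovulation and luteinization genes had a peak in 9 of 9 expressed members. Their interval, 66.4 to 100%, contained the 86.4% of the same FPKM ranges. Peaks reached 17.0-fold in VCAN, the matrix proteoglycan versican (7 peaks), and 75.1-fold in RUNX1 (4 peaks), both named after their values were seen.

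Lists of abundant structural and housekeeping genes lay between 80.0% and 96.8%. Collagen and matrix genes had a peak in 30 of 31 (96.8%), beside 80.2% in the same FPKM ranges. TIMP1, an inhibitor of matrix metalloproteinases (2159, 2091 and 3146 FPKM), had 1 of 1.97-fold and the matrix protein gene SPARC (1503 ± SD 50.1) 1 of 1.85-fold, and the proteoglycan gene DCN (193, 195 and 305) had none. Cytoskeletal and contractile genes had a peak in 28 of 31 (90.3%), beside 67.3% in the same ranges, with ACTG1, TUBA1B (890 ± SD 76.1 FPKM) and ACTG2 (246 ± SD 8.59) as those without. Translation factors had one in 24 of 30 genes (80.0%, beside 81.8%), the elongation factor gene EEF2 (964 ± SD 18.8 FPKM, 3.94-fold) among them, and the initiation factor genes EIF1 (279 ± SD 5.00), EIF4G2 (208 ± SD 31.8), EIF3F, EIF3G, EIF3I and EIF4H were without. Proteasome subunits had one in 25 of 29 (86.2%, beside 82.7%) and heat shock and chaperonin genes in 19 of 22 (86.4%, beside 81.6%), where the chaperonin genes CCT7 (142 ± SD 3.26), CCT5 and CCT4 had none. With at least 2-fold required the shares were 80.6% for collagens and matrix, 71.0% for the cytoskeleton and 63.6% for heat shock and chaperonin genes. They were 60% for translation factors and 58.6% for the proteasome, beside 79.6% of all expressed genes. That share also varied with RNA level, being 82.0% at 3 to 30 FPKM and 46.1% over 300 FPKM. Median RNA levels of these lists ran from 45.1 FPKM (heat shock and chaperonin) to 667 (cytoskeleton). The 2-fold share in the same FPKM ranges was not computed.

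DNA replication genes had a peak in 23 of 29 (79.3%, beside 87.1% in the same FPKM ranges), with the helicase subunit gene MCM7 (41.7 ± SD 3.99 FPKM) and the sliding clamp gene PCNA (14.1 ± SD 3.49) among the 6 without. Cholesterol synthesis genes had one in 21 of 23 (91.3%, beside 87.5%), with the kinase genes PMVK and MVK as those without. Of the 11 expressed histone genes 9 had one (81.8%, beside 85.1%), and the H2A.Z genes H2AFZ (115 ± SD 31.9 FPKM) and H2AZ2 had none. The other 15 histone genes listed were under 1 FPKM. Replication-dependent histone mRNAs lack a poly(A) tail, and the libraries were made from poly(A) RNA; what part this had in their levels was not tested.

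The deposited table assigns KEGG pathways to 4122 expressed genes. Of 262 pathways with at least 20 expressed genes, 18 had a peak in fewer than 70% of them and 9 in over 95%. The 5 lowest were oxidative phosphorylation (56 of 101, 55.4%, beside 83.9% in the same FPKM ranges), systemic lupus erythematosus (16 of 28, 57.1%, beside 85.1%), drug metabolism by other enzymes (22 of 36, 61.1%, beside 86.3%), glycine, serine and threonine metabolism (13 of 21, 61.9%, beside 85.5%) and rheumatoid arthritis (25 of 39, 64.1%, beside 84.7%). The ribosome pathway had 83 of 124 (66.9%, beside 80.5%). The 5 highest were the multi-species Hippo (26 of 26) and apoptosis (25 of 25) sets, cell adhesion molecules (43 of 44), insulin secretion (31 of 32) and basal cell carcinoma (28 of 29), beside 85.6% to 87.5% in the same FPKM ranges. Among these 5 highest sets, only for cell adhesion molecules did the 95% exact interval (88.0 to 99.9%) lie above its same-range share (85.7%). The intervals of the others of the 5 contained theirs. Both groups of 5 are the ends of a ranking of 262 pathways. Gene Ontology terms of the same table gave 96.0% (285 of 297, beside 86.2% in the same FPKM ranges) for DNA-binding transcription factors of RNA polymerase II. Chromatin remodelling had 98.1% (102 of 104, beside 86.7%), response to hypoxia 98.1% (52 of 53, beside 85.7%) and ubiquitin transferases 94.0% (158 of 168, beside 87.0%). The share was 90.0% for the nucleus (beside 84.7%) and 82.7% for the mitochondrion (beside 86.4%). It was 74.6% (153 of 205, beside 85.5%) for the mitochondrial inner membrane and 67.5% (112 of 166, beside 82.0%) for structural constituents of the ribosome. Pathways and terms share genes with each other and with the lists above.

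Genes without a symbol had a peak in 659 of 916 (71.9%), beside 87.6% of the 9109 with one. By RefSeq class, matched on the symbol, 7509 of 8529 protein-coding genes (88.0%) and 34 of 39 long noncoding RNA genes had a peak. Across the autosomes and X the share lay between 82.8% on chromosome 18 and 89.3% on chromosome 9. Among the 8035 genes under 1 FPKM, 2744 (34.2%) had a listed peak, and of the 1257 genes listed at 0 in all 3 inputs 44 had one. The peak list also named 215 genes (311 peaks) that are not used here for RNA levels, since the expression table as given has no row for them.

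Most normoxia peaks had a counterpart in the separate hypoxia list. By at least 1 shared base on the same strand, 18389 (72.6%) of the 25346 normoxia peaks and 20532 (84.0%) of the 24444 hypoxia peaks overlapped a peak of the other list. With 50% of both spans required, the shares were 43.4% and 44.9%. The shared part was 76.9% for 3' UTR peaks, 69.7% for 5' UTR peaks and 68.5% for exonic peaks. Normoxia peaks with a counterpart had a median enrichment of 4.76-fold and those without 2.77-fold, and 93.0% and 70.5% of them had an adjusted p-value under 0.05. Of 9440 genes expressed in both conditions, 7356 had a peak in both lists, 796 in normoxia alone, 202 in hypoxia alone and 1086 in neither. The lists were called separately and neither holds replicate values, so a gene found in 1 list was not tested for a difference between conditions. The cytosolic ribosomal protein genes had a peak in 36 of 67 in normoxia and 36 of 67 in hypoxia, 30 having none in either.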

How the data were processed

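MeRIP-seq was made from poly(A) RNA of primary porcine granulosa cells, with 3 input and 3 IP libraries per condition. The submitters' processing notes name HOMER 4.10, edgeR 4.1, StringTie 2.1.2, HISAT2 2.0.4, fastp 0.19.4 and FastQC, and give Sscrofa11.1 as the build. The tool behind each table, and how replicates were combined for peaks, are not stated there. The authors deposited FPKM per gene for the 6 input libraries, per the file headers. The authors' deposited peak lists give log2 IP/input enrichment, printed here as fold, with a p-value and adjusted p-value. FPKM hold no fragment counts, and the libraries' depth is therefore unknown. FPKM columns matched to no sample numbered 0.

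Peak starts are counted from 0 in the files (3369 peaks begin 1 base before their gene's start, 0 at it) and are given from 1. Genes were joined by identifier; symbols came from the file for 13660 genes and from a table of gene names for 120, and 4280 had none. A gene with a mean of at least 1 FPKM was called expressed, and RNA levels with ± are means and SD over the 3 normoxia inputs (n = 3). "Same FPKM ranges" is the mean share with a peak among expressed genes outside the list, over the ranges of its members. Intervals are 95% Clopper-Pearson (scipy 1.17.1). No test between groups was made.

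Named genes were, for each list, the 3 most abundant with and without a peak, the 15 most abundant of all without and the 10 with a peak, the 10 with most peaks (ties by higher FPKM), the 10 strongest and the 5 lowest-p, the 5 widest, all m6A machinery genes, NMNAT3 and granulosa markers. Some genes under this rule are not reported here. The members and lists were chosen with earlier results of these data known. The counting scripts were tested on simulated data. Of fragment sequences and motifs nothing was analysed here.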

Additional observations from a re-analysis of the deposited data

How the results depend on the processing

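Stricter peak rules gave lower shares of genes. With an adjusted p-value under 0.05 or under 0.01, the share of expressed genes with a peak was 84.2% or 81.3%, of those at 3 to 30 FPKM 86.8% or 84.0% (88.3% with all peaks), of those over 100000 bases 92.0% or 89.5%, the 3' UTR part of peaks 46.9% or 48.4%, and genes with a single peak 44.4% or 49.1% of genes with any (40.9% with all peaks). Under 0.01, ZNF genes had 97.0%, exonic peaks were 32.1% and 5' UTR peaks 16.3%. With at least 2-fold enrichment the share of all expressed genes was 79.6%, over 300 FPKM 46.1% (66.7% with all peaks), at 3 to 30 FPKM 82.0%, over 100000 bases 89.6%, in cytosolic ribosomal proteins 37.3%, in ZNF genes 97.0% and in oxidative phosphorylation 39.1%. The parts were then 47.2% in 3' UTRs, 30.2% exonic and 17.9% in 5' UTRs, with 47.1% of genes at a single peak. Without the 10 most frequent enrichment values the shares were 82.2% for all expressed genes, 84.9% at 3 to 30 FPKM, 52.1% up to 2000 bases, 90.3% over 100000 bases and 97.0% in ZNF genes. The parts were 47.0%, 34.5% and 15.3%, and single-peak genes 45.9%. With no filter on FPKM 63.1% of genes had a peak. Sharing with the hypoxia list was 43.4% at 50% of both spans and 74.6% among adjusted peaks. Leaving out each input library in turn gave 86.2% for all expressed genes, 1381 to 1395 genes without a peak and 66.7% to 68.3% over 300 FPKM. Counting a gene also where a same-strand peak of another gene overlaps it, an alternative chosen after seeing the data, left 1364 expressed genes without a peak. Of the other lists, 6 of 21 moved beyond their interval in at least 1 alternative, all downward with the 2-fold rule.

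No paired analysis was possible because each peak has 1 value per condition. Overlap of exonic blocks and motif searches were not run: the lists give spans only, and no genome was used here. For the same reason, and with the depth unknown, how many unlisted genes fell short for lack of fragments was not tested.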
